A study of Mus musculus with 4 samples.

Results

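The genes described here are the metalloproteinases of the Mmp, Adam and Adamts families, the Adamts-like (Adamtsl) glycoproteins and the tissue inhibitors of metalloproteinases (Timp). They were taken by name from the protein-coding genes of the deposited tables, as symbols that begin with Mmp, Adam, Adamts, Adamtsl or Timp followed by a digit. This gave 83 of 54532 genes: 22 Mmp, 33 Adam, 19 Adamts, 5 Adamtsl and 4 Timp. RNA was sequenced from cells that the labels call primary cancer-associated fibroblasts (CAFs) of mouse breast, in 2 libraries (A and B) without irradiation and 2 libraries (A and B) with targeted radiation of 6 Gy. All 4 libraries came from Dll1 mcherry+ tumours of MMTV-PyMT mice on the C57BL/6 strain, in which a mammary tumour virus promoter drives the polyoma middle T oncogene in mammary epithelium. The treatment label gives the radiation at day 6, and all titles carry the tag TRT 6D. The interval between radiation and collection, the age of the mice and whether A and B are separate animals are not given in the labels. The p-values therefore rest on the spread of these 4 libraries alone, which the test pools largely over genes. That spread may be technical.

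Metalloproteinases are zinc enzymes. Mmps cut collagens, basement membrane and other matrix proteins, Adams mostly cut the outer parts of membrane proteins such as growth factors and Notch ligands, and Adamts enzymes cut proteoglycans and procollagens. Adamtsl proteins share the non-catalytic modules of Adamts enzymes but have no protease domain. Timps bind the active site of these enzymes and block it. In tumours, fibroblasts, macrophages, neutrophils and tumour cells each make part of this set.

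Of the 83 genes, 52 had enough counts to be tested and 31 did not. Among the 52 tested genes 34 were higher and 8 lower in the irradiated libraries, and 10 did not pass the threshold (adjusted p under 0.05 in the quasi-likelihood test of edgeR, with Benjamini-Hochberg correction over all tested genes). Over all 15961 tested genes the background was 33.7% higher and 32.1% lower, 65.8% in all, against 65.4% higher and 15.4% lower here. The median log2 fold change was 0.82 for the 52 genes and -0.01 for all tested genes. When the same test asked for more than a 1.5-fold change, 21 of the 52 were higher and 3 lower, beside 12.7% higher and 10.8% lower of all genes, 23.6% in all. A gene can pass the count filter through the group in which it is high, so these counts describe the tested genes only.

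The 5 subfamilies differed in their counts. Timp genes were 3 higher of 3 tested and Adamts genes 12 higher and 1 lower of 15, with medians of 0.97 and 1.09. Adamtsl genes were 3 higher and 0 lower of 5 with a median of 1.02, and the other 2 had an adjusted p of 0.135 and 0.761 (edgeR). Adam genes were 8 higher and 2 lower of 13 with a median of 0.64. Mmp genes were the most mixed by count, with 8 higher and 5 lower of 16 and a median of 0.33. The difference between subfamilies was not tested.

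**Figure D1:**
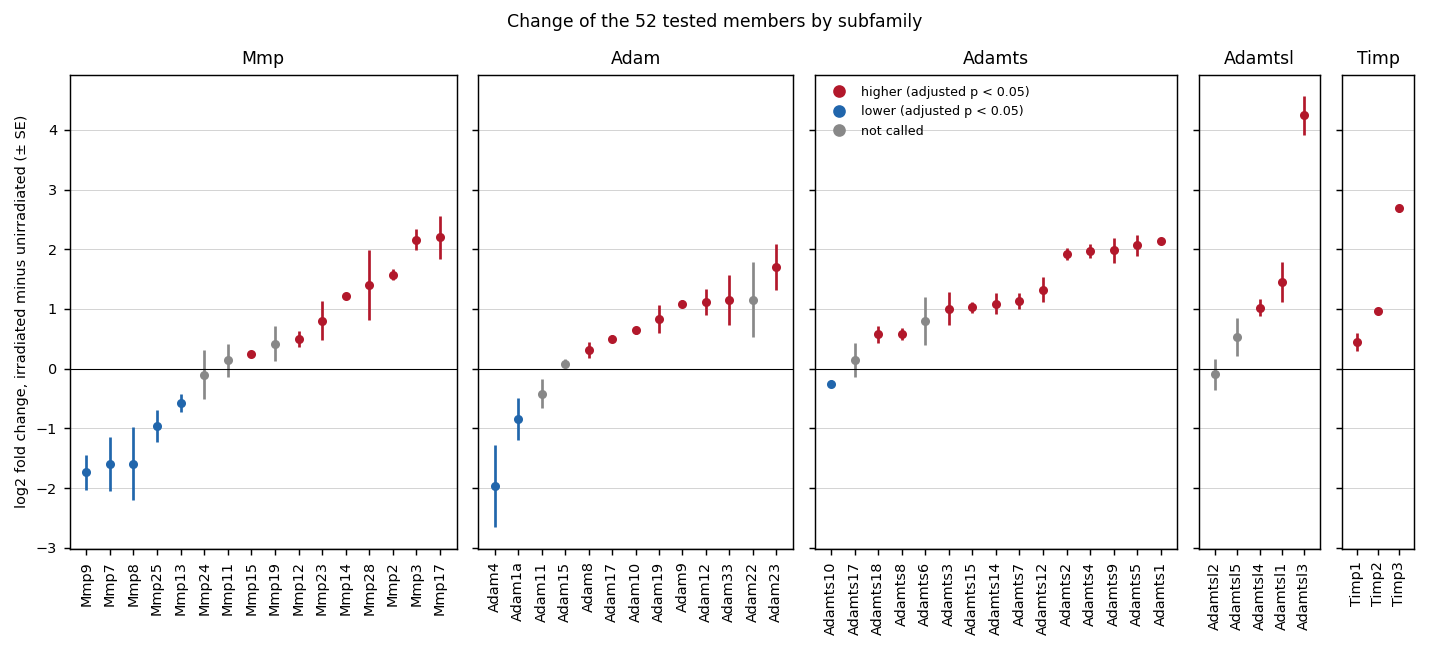
Log2 fold change (irradiated minus unirradiated, error bars SE) of each of the 52 tested genes by subfamily, in red where higher, in blue where lower and in grey where not past the threshold. Adamts and Timp genes lie above 0 except Adamts10, while Mmp genes run from -1.73 (Mmp9) to 2.20 (Mmp17).

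Across all tested genes, long genes were higher more often in the irradiated libraries. With tested genes split into 4 nearly equal classes by deposited gene length, from the shortest to the longest, the median log2 fold change was -0.38, -0.06, 0.10 and 0.23, and 14.35%, 29.0%, 39.95% and 51.7% were called higher. The tested family members had a median length of 5413.5 bases against 3941 bases for all tested genes. In the longest class, 15 of 20 members were higher and 1 lower, and in the class below it 13 of 19 were higher and 2 lower. Among shorter members the split was even in the second class, with 4 higher and 4 lower of 10, and the shortest class had 2 higher and 1 lower of 3. With a trend against gene length removed, 30 members were higher and 9 lower (median 0.73), beside 4486 higher and 5585 lower of all 15961 tested genes. The part of gene length in the single results was not tested further.

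**Figure D2:**
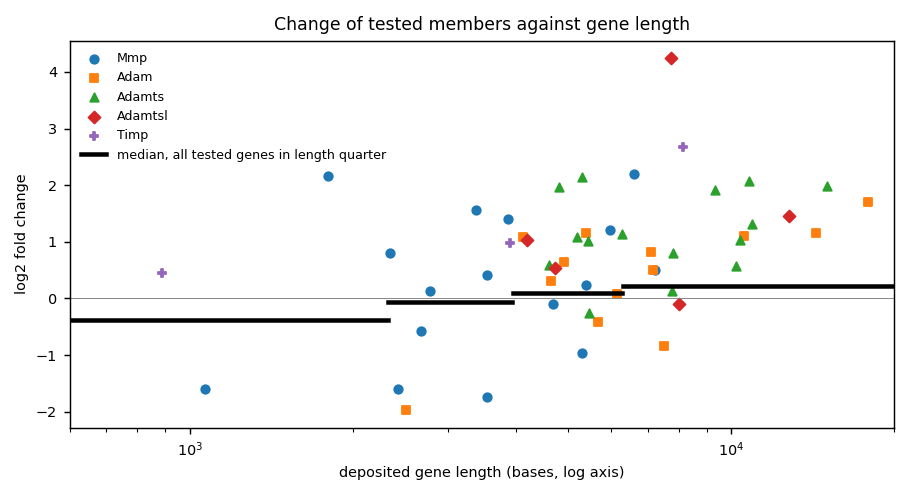
Log2 fold change of the 52 tested genes against deposited gene length in bases (log axis), with symbols for the 5 subfamilies and black bars for the median of all tested genes in each of 4 length classes. The black bars rise from -0.38 to 0.23, and Timp3, Adamts1 and Adamtsl3 (2.68, 2.14 and 4.24) lie well above the bar of their length.

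All 3 tested inhibitors rose. Timp3, which binds to the extracellular matrix and also inhibits Adam17 and aggrecan-cleaving Adamts enzymes (chromosome 10, 86300372 to 86349506, on mm10 as all gene positions here), was at 37.3 and 36.3 CPM (read counts scaled to library size, with TMM factors) without irradiation (A, B) and at 239.8 and 233.7 CPM with it. Its groups lay far apart, with means of 36.8 ± 0.677 and 237 ± 4.29 CPM (SD, n = 2 each), a log2 fold change of 2.68 (SE 0.0598) and an adjusted p of 1.15e-38. Timp2, the inhibitor that also helps membrane-bound Mmp14 to activate pro-Mmp2 (chromosome 11, 118301069 to 118355740), was at 97.2 and 94.4 CPM without and at 189 and 187 CPM with irradiation (log2 fold change 0.97, SE 0.0530). Timp1, a secreted inhibitor (chromosome X, 20870166 to 20874735), was at 8.35 and 8.98 CPM against 12.6 and 11.1 CPM. The groups of Timp1 did not overlap but lay close (log2 fold change 0.45, SE 0.149, adjusted p = 0.00758). The Timp1 call was lost with DESeq2 (0.45), without unirradiated A (0.39) and without irradiated A (0.36). Timp4 was not tested, with 4 counts summed over the unirradiated and 7 over the irradiated libraries.

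Per kilobase of gene length, the scale on which levels of different genes can be compared, Timp2 was the most abundant inhibitor in both groups (24.6 and 48.3 CPM per kb). Timp1 was second without irradiation (9.76 against 4.52 CPM per kb for Timp3). With irradiation Timp3 was second (29.1 against 13.4 CPM per kb for Timp1), and its share of the summed Timp level per kb went from 11.6% to 32.0%. Timp1, Timp3 and Timp4 overlap the synapsin genes Syn1, Syn3 and Syn2 on the opposite strand. The library kit does not mark strand, and over the 4 libraries Syn1 and Syn3 held 59 and 140 counts against 736 for Timp1 and 10853 for Timp3.

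**Figure D3:**
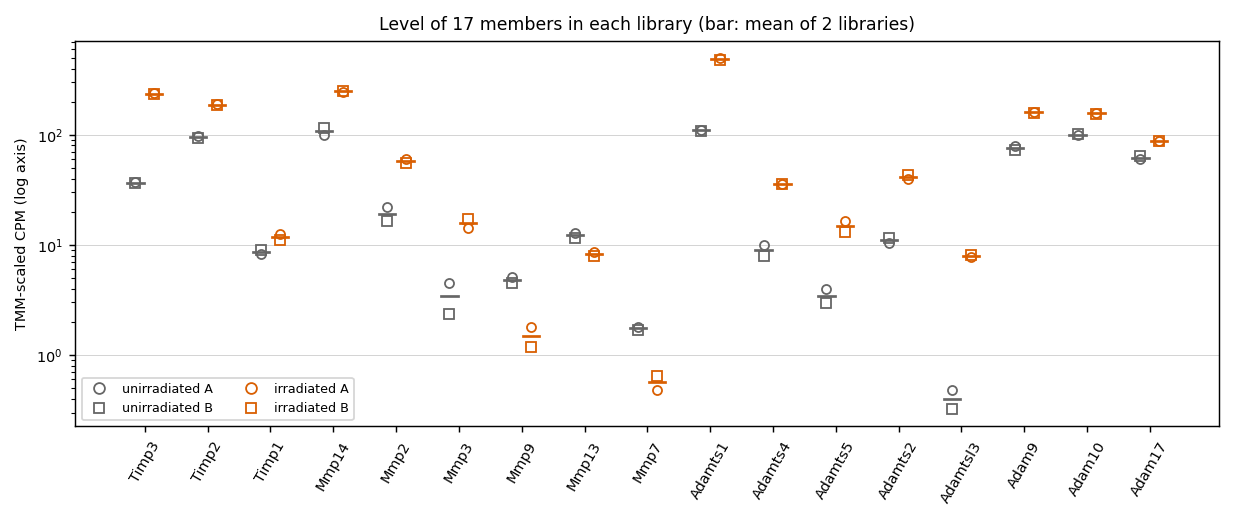
TMM-scaled CPM (log axis) of 17 genes in unirradiated (grey) and irradiated (orange) libraries, with circles for A, squares for B and bars for the mean of 2 libraries. The genes shown were all called and were chosen with earlier results of these data known. Mmp9, Mmp13 and Mmp7 are the ones with lower irradiated values.

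Summed over their genes, Timp transcripts stood at 142.9 and 139.9 CPM without irradiation (A, B) and at 441 and 432 CPM with it, a 3.09-fold difference of means. Summed Adamts levels went from 309 ± 4.60 to 811 ± 12.2 CPM (2.62-fold) and Adamtsl levels from 14.9 ± 0.0380 to 33.2 ± 0.0359 CPM (2.22-fold). Summed Mmp levels went from 311 ± 6.44 to 527 ± 1.68 CPM (1.69-fold) and Adam levels from 321 ± 1.45 to 501 ± 7.53 CPM (1.56-fold). The ratio of summed Timp to summed Mmp level was 0.466 and 0.443 without and 0.835 and 0.822 with irradiation. Per kb of gene length this ratio was 0.602 and 0.607 without and 0.848 and 0.820 with irradiation. All 5 sums and both ratios were higher in each irradiated library than in each unirradiated library. With 2 against 2 libraries an exact two-sided permutation test cannot give a p below 0.33, so none was made on the sums. The sums depend on a few genes. Without Timp2, the most abundant Timp over the 4 libraries, the Timp sum differed 5.45-fold, more than with it. Without Adamts1 the Adamts sum differed 1.63-fold. The largest rise among the Timps was that of Timp3, from a mean of 36.8 to 237 CPM, beside 95.8 to 188 CPM for Timp2. The Timp sum and its ratio to Mmp without Timp3 are not reported here.

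**Figure D4:**
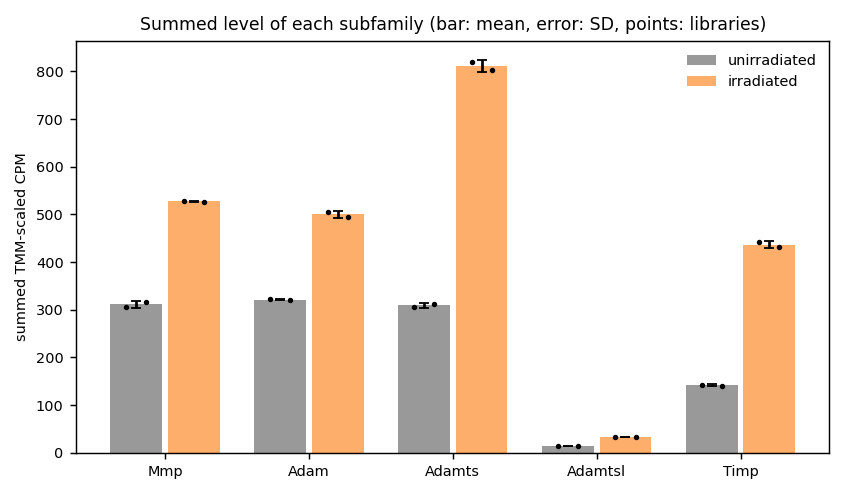
Summed TMM-scaled CPM of each subfamily, with bars for the mean of 2 libraries, error bars for the SD and points for the libraries. The irradiated bars are higher in all 5 subfamilies, with Adamts at 811 CPM the tallest.

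Among the Mmps, the pair of Mmp14 and its substrate pro-Mmp2 rose. Mmp14, a membrane-anchored collagenase and activator of pro-Mmp2 (chromosome 14, 54431612 to 54445364), was at 99.6 and 116 CPM without irradiation (A, B) and at 247 and 251 CPM with it. It was therefore 2.31-fold higher in the mean (log2 fold change 1.22, SE 0.0547, adjusted p = 1.80e-25). Mmp2, the gelatinase made largely by stromal cells (chromosome 8, 92827291 to 92853420), was at 21.9 and 16.5 CPM against 60.6 and 55.6 CPM, with no overlap (1.57, SE 0.0914). Mmp15, another membrane-anchored enzyme, was the most abundant Mmp per kb without irradiation, at 25.0 against 18.1 CPM per kb for Mmp14. With irradiation the order turned, with 41.8 CPM per kb for Mmp14 and 29.5 for Mmp15. The small rise of Mmp15 (0.24) was lost with the length trend removed (0.06).

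Mmp3, the matrix-degrading stromelysin 1, was at 4.47 and 2.35 CPM without and at 14.3 and 17.3 CPM with irradiation (log2 fold change 2.16, SE 0.183). As a ratio, though not in CPM, the unirradiated libraries differed from each other more than the irradiated ones did, and without unirradiated A the log2 fold change was 2.76. Mmp17, a membrane enzyme with a lipid anchor, was low, at 0.776 and 0.728 CPM against 3.85 and 3.19 CPM (2.20, SE 0.360). Mmp23, a short Mmp without the hemopexin domain, was at 1.55 and 1.46 against 2.41 and 2.82 CPM (0.80, SE 0.329). The Mmp23 call was lost with DESeq2 (0.80) and when any of the 4 libraries was left out, with log2 fold changes from 0.67 (without irradiated B) to 0.90 (without irradiated A), 0.85 without unirradiated A and 0.77 without unirradiated B. Mmp28 (1.41) was under 1 CPM in every library and likewise lost its call with DESeq2 (1.44) and without unirradiated A (1.89), unirradiated B (1.12), irradiated A (1.43) or irradiated B (1.38).

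A second set of Mmps fell. Mmp9, the gelatinase abundant in neutrophils and macrophages (chromosome 2, 164940780 to 164955850), was at 5.07 and 4.53 CPM without and at 1.80 and 1.17 CPM with irradiation (log2 fold change -1.73, SE 0.291, adjusted p = 1.00e-06). So the gelatinases Mmp2 and Mmp9 moved in opposite directions in the same libraries. Mmp25, a lipid-anchored enzyme first known from leukocytes, was at 5.25 and 3.88 against 2.71 and 2.10 CPM (-0.96, SE 0.263), a call that leaving out unirradiated A ended (-0.71). Mmp8, the neutrophil collagenase, was under 1.1 CPM throughout. It held 18 and 11 counts without irradiation (A, B) and 11 and 2 with it. The fitted log2 fold change was -1.59, and -3.51 when irradiated A was left out, and it was not called without irradiated B (-0.58), without unirradiated A (-1.44) or with DESeq2 (-1.48).

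Markers of neutrophils were lower by count. Of 11 tested markers, Mmp8 among them, 6 were lower and 1 higher (median -0.80), against 32.1% lower and 33.7% higher of all tested genes. Ltf, encoding lactoferrin, which mammary epithelium also secretes, was the higher marker, at 309 ± 8.98 CPM without and 2105 ± 24.8 CPM with irradiation. It carried most of the sum of all markers, which was higher with irradiation, at 379 and 385 CPM against 2147 CPM in both irradiated libraries. Without Ltf the marker sum was 76.6 and 69.4 CPM without irradiation (A, B) and 59.5 and 24.4 CPM with it, a split chosen after its values were seen. Irradiated B was the lowest library both for Mmp8, at 2 counts, and for this sum, which includes Mmp8 and so is not separate from it. Macrophage markers moved the other way, with 13 of 15 tested markers higher, 1 lower and a sum of 476 ± 3.27 against 942 ± 4.53 CPM. Fewer cells of a type and less RNA per cell cannot be told apart in these bulk samples, and the part of either cell type in the Mmp values was not tested.

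On chromosome 9, 9 of the Mmp genes lie in a cluster of 427.1 kb (7272514 to 7699585), and the tested genes there moved in both directions. Mmp13, a collagenase at the start of the cluster, was at 12.8 and 11.6 CPM without and at 8.60 and 7.95 CPM with irradiation (log2 fold change -0.57, SE 0.149). Next to it, Mmp12, the macrophage metalloelastase, was at 11.1 and 12.0 against 17.6 and 15.01 CPM (0.49, SE 0.130), a call lost with the length trend removed (0.22). The next tested genes along the cluster are Mmp3, with the rise given above, and Mmp8, with untested genes between. At the other end Mmp7, the epithelial matrilysin, was at 1.79 and 1.70 against 0.481 and 0.646 CPM (-1.59, SE 0.451). The 5 tested genes of the cluster were thus 2 higher and 3 lower. Mmp10, Mmp27, Mmp1b and Mmp20 were not tested, with 25, 21, 0 and 0 counts over the 4 libraries. Mmp27 held 1 count without and 20 with irradiation, which after scaling is a 14.1-fold ratio (exact binomial 95% interval 2.25 to 583, for counting error only). Mmp27 is named here after its counts were seen.

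**Figure D5:**
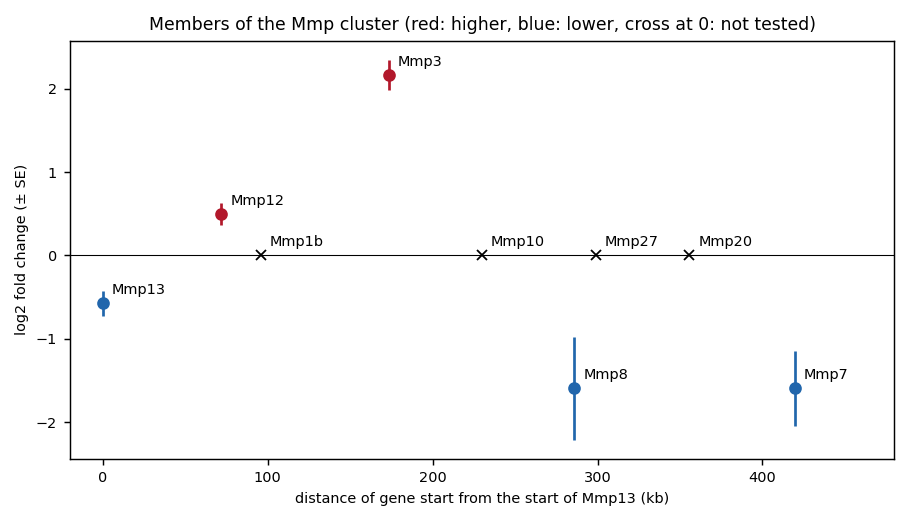
Log2 fold change (error bars SE) of the clustered Mmp genes against the distance of their start from that of Mmp13 in kb, in red where higher and blue where lower, with crosses at 0 for the 4 genes not tested. Among the tested genes, Mmp3 at 2.16 stands between Mmp12 (0.49) and Mmp8 (-1.59).

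The promoters of the 5 tested genes of this cluster are shown. Those of Mmp13, Mmp3 and Mmp7 hold a motif of AP-1, the Fos and Jun transcription factor. The part of AP-1 in the changes of these genes was not tested. The sequences are the 100 bases before the RefSeq start on GRCm38.p6, 5′ to 3′ on the gene's strand, in genomic order, with the AP-1 motif TGANTCA and the TATA motif TATAAA in capitals where either was found on any strand.
Mmp13, chr9:7272414-7272513, plus strand: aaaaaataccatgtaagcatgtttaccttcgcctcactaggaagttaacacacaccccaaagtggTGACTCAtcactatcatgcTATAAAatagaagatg
Mmp12, chr9:7344297-7344396, plus strand: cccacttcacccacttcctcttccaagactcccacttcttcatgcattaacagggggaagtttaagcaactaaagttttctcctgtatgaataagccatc
Mmp3, chr9:7445722-7445821, plus strand: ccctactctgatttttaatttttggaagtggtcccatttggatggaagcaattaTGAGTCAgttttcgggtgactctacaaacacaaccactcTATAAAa
Mmp8, chr9:7558329-7558428, plus strand: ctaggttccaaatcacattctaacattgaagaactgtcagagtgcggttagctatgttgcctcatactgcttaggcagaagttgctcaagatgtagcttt
Mmp7, chr9:7691990-7692089, plus strand: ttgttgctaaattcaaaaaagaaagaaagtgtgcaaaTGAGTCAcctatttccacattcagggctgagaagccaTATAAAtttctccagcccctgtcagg

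In the 250 bases before the start, TGANTCA, which reads as TGANTCA on the other strand too, was found in 6 of the 9 cluster genes and in no other of the 17 Mmp genes matched to a RefSeq promoter. The motif begins 35 bases before the start of Mmp13, 46 before that of Mmp3 and 63 before that of Mmp7. Of 32536 distinct promoter windows of this length in the table, 6.73% hold it and 12.3% hold TATAAA. Among the 52 members matched to a promoter, 10 hold TGANTCA: 2 of 23 called higher, 2 of 5 called lower and 6 of 17 not tested. A match of letters is a description and not a binding site. Of 21 transcription factors listed as Mmp gene regulators, 10 were higher and 10 lower (median -0.01), against 33.7% and 32.1% of all tested genes. The 3 largest changes were falls. Jun was at 4270 ± 158.2 CPM without and 1356 ± 29.3 CPM with irradiation and Fosb at 3857 ± 82.9 and 1637 ± 7.20 CPM. Etv1, an Ets factor, was at 141.6 ± 4.69 and 45.2 ± 2.83 CPM. The 3 largest rises, named after their values were seen, were smaller: Runx2, a factor of bone formation, was at 6.45 ± 1.00 and 12.9 ± 0.255 CPM, and the NF-kB subunits Relb and Rela were at 33.1 ± 2.48 and 60.7 ± 1.40 CPM and at 147.6 ± 1.81 and 243 ± 2.59 CPM.

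The Adamts proteoglycanases all rose among those tested, 6 of 6. Adamts1, which cuts versican and aggrecan (chromosome 16, 85793827 to 85803113), was at 112 and 109 CPM without irradiation (A, B) and at 496 and 479 CPM with it. It was 4.42-fold higher in the mean (log2 fold change 2.14, SE 0.0477, adjusted p = 1.12e-38), and its share of the summed Adamts level per kb went from 39.2% to 65.3%. Adamts5, an aggrecanase whose gene lies 53.1 kb from Adamts1 on the same strand, was at 3.94 and 2.99 against 16.6 and 13.2 CPM (2.07, SE 0.178). The neighbours therefore differed by a similar factor although Adamts1 was much the more abundant per kb, at 92.0 against 1.38 CPM per kb with irradiation. The promoter of Adamts1 is shown as that of the most abundant Adamts gene per kb, with its TATA motif in capitals and no TGANTCA in the 250 bases.
Adamts1, chr16:85803114-85803213, minus strand: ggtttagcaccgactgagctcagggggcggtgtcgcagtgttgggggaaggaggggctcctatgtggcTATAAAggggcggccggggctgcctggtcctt

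Adamts4, the other main aggrecanase (chromosome 1, 171250421 to 171260637), was at 10.0 and 8.01 CPM without and at 36.1 and 35.7 CPM with irradiation (1.97, SE 0.112). Adamts9, a proteoglycanase, was at 2.39 and 2.35 against 8.90 and 9.76 CPM (1.98, SE 0.215). Adamts15 and Adamts8, neighbours 20.1 kb apart on opposite strands of chromosome 9, rose less, with log2 fold changes of 1.02 and 0.58.

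The procollagen N-proteinases, which trim fibrillar procollagens, were 3 higher of 3. Adamts2 (chromosome 11, 50602084 to 50807573) was at 10.5 and 11.5 CPM without and at 39.45 and 42.8 CPM with irradiation (1.92, SE 0.103). Adamts14 was at 4.65 and 7.28 against 13.8 and 11.2 CPM (1.09, SE 0.174), with more spread between libraries of a group than Adamts2. Adamts3 rose by 1.01 on the log2 scale, a call that ended without unirradiated A (0.65). The pair that cuts the cartilage matrix protein COMP also rose. Adamts12 was at 3.40 and 3.16 against 8.78 and 7.75 CPM (1.32, SE 0.209) and Adamts7 at 9.31 and 7.77 against 19.4 and 18.5 CPM (1.13, SE 0.132). Adamts7 overlaps Tbc1d2b on the opposite strand, which held more counts.

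Adamts10, which associates with fibrillin microfibrils (chromosome 17, 33524204 to 33553782), was the only called fall among the 15 tested Adamts genes. It was at 92.1 and 94.2 CPM without and at 76.6 and 79.4 CPM with irradiation (log2 fold change -0.25, SE 0.0583). Without irradiation it was close to Adamts1 in level per kb (17.1 against 20.8 CPM per kb), and with irradiation it held 10.2% of the summed Adamts level per kb. Adamts6 (0.80) and Adamts17 (0.14) did not pass the threshold, and Adamts18 (0.58) was not called with the length trend removed (0.24).

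Adamtsl3, a matrix glycoprotein also called punctin-2 (chromosome 7, 82335694 to 82614450), showed the largest log2 fold change of the 52 genes. It was at 0.477 and 0.324 CPM, or 8 and 4 counts, without irradiation and at 7.76 and 8.03 CPM, or 129 and 199 counts, with it. The ratio of scaled counts was 19.2 with an exact binomial 95% interval of 10.9 to 37.6 that covers counting error only, and the fitted log2 fold change was 4.24 (SE 0.324). Adamtsl1, its relative punctin-1, was at 1.37 and 0.971 against 3.25 and 3.31 CPM (1.45, SE 0.329). Adamtsl4, a fibrillin-binding member, was the most abundant of the subfamily per kb, at 8.11 and 7.52 CPM against 16.5 and 15.5 CPM (1.02, SE 0.141). Adamtsl5 (0.53) and Adamtsl2 (-0.09) did not pass, and the groups of Adamtsl2 overlapped.

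Adams of the reproductive tract and some others were kept in a class of their own, given below and not sorted by catalytic site. Outside that class, Adams with a working catalytic site were 7 higher and 0 lower of 8 tested. Adam9, a sheddase of growth factors and matrix receptors (chromosome 8, 24949611 to 25016927), was at 78.4 and 72.3 CPM without and at 163 and 158 CPM with irradiation (log2 fold change 1.09, SE 0.0565). Adam10, which cuts Notch receptors and the ligand Dll1 (chromosome 9, 70678997 to 70780229), was at 99.2 and 101 against 157 and 155 CPM (0.64, SE 0.0536). Adam17, the TNF convertase, was at 60.6 and 63.8 against 88.6 and 87.2 CPM (0.50, SE 0.0618). Over all 4 libraries these 3 were the most abundant Adams per kb, although without irradiation Adam15 (8.87 CPM per kb) was level with Adam17 (8.70). Adam9 passed Adam10 in the irradiated libraries, at 39.0 against 31.8 CPM per kb. Adam15, at 54.9 and 54.1 against 57.9 and 58.0 CPM, did not pass (0.09, adjusted p = 0.264), and its direction turned with the length trend removed (-0.13).

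Of the less abundant Adams, Adam12, a marker of activated stroma, was at 3.16 and 3.16 CPM without and at 7.28 and 6.46 CPM with irradiation (1.11, SE 0.219). Adam19, a sheddase of neuregulins, was at 3.94 and 2.35 against 6.56 and 5.04 CPM (0.83), and its call was lost without unirradiated B (0.54) and without irradiated A (0.65). Adam33 was at 0.954 and 0.728 against 1.86 and 1.94 CPM (1.15) and lost its call with DESeq2 (1.16), without unirradiated B (0.99) and without irradiated B (1.12). Adam8 (0.31) lost its call with DESeq2 (0.31), upper-quartile scaling (0.26), a stricter filter (0.29) and the length trend removed (0.17), and without unirradiated A (0.21) or irradiated A (0.21). Among the Adams without a catalytic site, Adam23, an adhesion protein best known from neurons, was at 0.716 and 0.890 against 2.41 and 2.74 CPM (1.70, SE 0.385), while Adam22 (1.16) and Adam11 (-0.42) did not pass. Adam11 was called lower without unirradiated A (-0.69) and with the length trend removed (-0.61).

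The other Adams, many of them known from the reproductive tract, were not sorted by catalytic site. Of these 21 genes, 9 were at 0 counts in all libraries and 2 were tested. On chromosome 8, where 13 Adam genes lie, 7 were at 0 counts and Adam9 was the 1 tested. Adam1a and Adam4, the 2 tested of the 21, were called lower. Adam1a was at 2.68 and 2.02 against 1.26 and 1.37 CPM (-0.84), and its call was lost with DESeq2 (-0.84) and without unirradiated A (-0.61), irradiated A (-0.79) or irradiated B (-0.91). Adam4 was at 0.776 and 0.809 against 0.361 and 0.0807 CPM (-1.97), with a call lost with DESeq2 (-1.92) and without unirradiated A (-2.00) or irradiated B (-1.11), and a value of -3.19 without irradiated A. Both overlap better covered genes on their own strand, Mapkapk5 for Adam1a and Cox16 for Adam4, so their counts are uncertain.

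The remaining untested genes held few counts. Of the 31 untested genes 11 were at 0 counts in all 4 libraries, and the highest sum was 42 counts, for Adam32. Adamts13, Adamts16, Adamts19 and Adamts20 held 6, 16, 3 and 17 counts, and Mmp16 and Mmp21 held 6 and 7 counts. Mmp19 (0.42), Mmp11 (0.14) and Mmp24 (-0.10) were tested and did not pass, and all 3 overlap genes with more counts on the opposite strand.

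Relatives that the names do not cover moved in the same direction by count. Of 13 tested related metalloproteinases 10 were higher and 2 lower (median 0.89), against 33.7% and 32.1% of all tested genes. Mme, the cell surface peptidase neprilysin, was at 2.74 ± 1.02 CPM without and 64.7 ± 4.20 CPM with irradiation, and Bmp1, the procollagen C-proteinase, at 25.4 ± 0.205 and 61.6 ± 1.61 CPM. Tll1, a relative of Bmp1, was at 0.181 ± 0.0873 and 2.79 ± 0.642 CPM.

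Activators and surface regulators of the enzymes were 17 higher and 4 lower of 27 (median 0.27), against 33.7% and 32.1% of all tested genes. Pcsk5, a proprotein convertase, was at 1.89 ± 0.275 and 17.7 ± 0.347 CPM, Itgb3, an integrin subunit, at 19.4 ± 0.943 and 68.7 ± 2.51 CPM and A2m, a broad protease inhibitor, at 0.769 ± 0.515 and 2.98 ± 0.385 CPM. Known substrates of the enzymes were mostly higher. The lists used here share genes, so their counts and medians are not separate observations. Col1a1, Col1a2 and Col3a1 stand in the Mmp substrate list, the Adamts substrate list and the fibroblast markers. Fibronectin (Fn1) stands in both of these substrate lists, and Dcn in the Adamts list and the fibroblast markers. Acan, Comp, Col2a1, Vwf, Cd44, Cdh1 and Elf3 also each stand in more than a single list. Interstitial and basement membrane substrates of Mmps were 19 higher and 0 lower of 22 (median 1.49), with Fn1 at 77.4 ± 3.65 and 401 ± 23.3 CPM and nidogen 1 (Nid1) at 14.9 ± 0.363 and 63.3 ± 4.14 CPM. Adamts substrates and Adamtsl partners were 17 higher and 2 lower of 20 (median 1.74). Acan, the aggrecan core protein, was at 0.620 ± 0.305 and 4.50 ± 1.34 CPM, whereas Comp, the substrate of Adamts7 and Adamts12, was at 104 ± 3.22 and 6.13 ± 0.753 CPM. Proteins shed by Adam10 and Adam17 were 21 higher and 4 lower of 28 (median 0.54). Cx3cl1, a membrane chemokine, was at 65.6 ± 2.29 and 233.8 ± 4.92 CPM, Sdc4, a heparan sulfate proteoglycan, at 509 ± 1.87 and 1487 ± 13.6 CPM and Egf at 8.63 ± 0.875 and 1.41 ± 0.562 CPM.

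Total counts were 13011489 to 23763830 per library, and 1 count was worth 0.0403 to 0.0809 CPM. Transcripts of other cell types were present, and summed epithelial markers exceeded summed fibroblast markers in all 4 libraries. The 18 epithelial markers summed to 11545 ± 4.23 CPM without and 10211 ± 299 CPM with irradiation, against 544 ± 26.7 and 1777 ± 7.90 CPM for the 17 fibroblast markers. Of the epithelial markers 4 were called higher and 10 lower (median -0.18), against 33.7% and 32.1% of all tested genes. Of the tested fibroblast markers 13 of 15 were higher and 0 lower (median 1.49), and Pdgfra, the target of the antibody used on the digested tumours, was at 5.59 ± 0.223 and 23.7 ± 1.17 CPM. Endothelial markers were 10 higher of 13 (101 ± 2.74 and 215 ± 7.06 CPM), pericyte and smooth muscle markers 8 higher of 11 (252 ± 6.33 and 404 ± 0.428 CPM) and T and NK cell markers 5 lower of 7 (13.8 ± 0.245 and 6.26 ± 0.0993 CPM). None of these 3 lists had members called in the other direction. Chondrocyte and osteoblast markers were 6 higher and 3 lower of 9. The cartilage collagen Col2a1, at 21.8 ± 1.35 and 1033 ± 6.12 CPM, was among the higher and Comp, with the fall given above, among the lower. The part of these cell types in the rises of Mmp2, Mmp14, the Adamts genes and the Timps was not tested.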

How the data were processed

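The 4 deposited tables, 1 per library, were used. They hold the authors' whole-number read counts per gene, not normalized, with a gene length in bases, per the file headers. The tools named in the submitters' processing notes are STAR 2.5, HTSeq 0.6.1 and DESeq2, and the build is mm10, while their settings and the gene annotation's version are not given in the sources. Reads of overlapping or near-identical genes could be split or dropped. Not every overlap of a member with another gene is reported here. Groups came from the treatment labels. Counts were tested with edgeR 4.0.16 (R 4.3.3; filterByExpr, TMM scaling, quasi-likelihood F-test, Benjamini-Hochberg over 15961 genes, threshold 0.05). The fit had 2 residual degrees of freedom per gene and a prior of 46.9 degrees of freedom shared over the tested genes. The variance behind each p-value was therefore drawn largely from all tested genes and little from the gene's own 4 values. The common biological coefficient of variation was 3.86%. A standard error is the size of the log2 fold change divided by the root of its F statistic. The code was checked on simulated data.

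A and B of a group differed by a median chi-square 2.11 (unirradiated) and 2.14 (irradiated) times that of counting alone, over genes with at least 20 summed counts, so each was kept as a replicate. No batch is labelled, so a batch that follows the groups and irradiation cannot be told apart. Genes were chosen by name, and members, lists, roles and rules were set with earlier results of these data known. Full values are given for the Timps and, per other subfamily, for up to 8 called members with a mean of at least 1 CPM and the largest change, together with the 3 most abundant per kb and up to 3 members of each list. Where a group held 20 counts or fewer a ratio of scaled counts with an exact binomial 95% interval may be given. Promoters were matched by symbol for 52 of 83 members in a RefSeq table on GRCm38.p6, taking the start nearest the deposited one. As alternatives, DESeq2 1.42.0, scaling by RLE or the upper quartile, a stricter or no filter, a block for the replicate letter, omission of each library in turn, a test against 1.5-fold and removal of a gene length trend (loess, span 0.5) were run.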

Additional observations from a re-analysis of the deposited data

How the results depend on the processing

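Of the 52 tested members, RLE scaling and no filter on low counts changed no call or direction, and upper-quartile scaling ended 1 call (Adam8). With the stricter filter 48 members were tested and 32 were higher and 6 lower: Adam8 lost its call, and the called members Adam4, Mmp8 and Mmp28 were no longer tested. DESeq2 ended 8 calls, leaving 5 members lower and 0 Adams lower. The stricter filter left 1 Adam lower. The labels do not say what the replicate letters stand for. Between the groups, the A minus B differences had r = 0.01 across all tested genes and 0.11 across tested members. Such values cannot settle whether a letter pairs libraries. The replicate block ended the call of Adam1a (-0.82), which left 1 Adam lower, and changed no other call of a member. Against 1.5-fold, 2034 genes were higher and 1725 lower of all tested, 21 members higher and 3 lower, 3 Adams higher and 1 lower, 4 Mmps higher and 2 lower and 0 Adamts genes lower. Leaving out each library gave 5 to 8 members lower, 0 to 2 Adams lower and 3 to 5 Mmps lower. Per kb, the summed levels differed 1.60-fold (Adam), 2.13-fold (Adamtsl) and 2.33-fold (Timp), and the Timp to Mmp ratio 1.38-fold. Without the most abundant member they differed 1.63-fold (Adamts), 2.42-fold (Adamtsl), 1.37-fold (Mmp) and 5.45-fold (Timp), and the ratio 3.98-fold. For that ratio Timp2 and Mmp14 were left out, while Timp3, the Timp with the largest rise, was kept. The neutrophil marker sum turned from higher to a ratio of 0.57 without Ltf, an alternative chosen after seeing the data.

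The direction turned for Adam15 (-0.13) and Adamts17 (-0.15) with the length trend removed, and for these members that did not pass the threshold: Adamts17 without irradiated A (range over the 4 left-out libraries -0.093 to 0.39), Adamtsl2 without unirradiated B or irradiated A (-0.38 to 0.18), Mmp11 without unirradiated B (-0.21 to 0.71) and Mmp24 without unirradiated B or irradiated B (-0.39 to 0.19). The cause was not tested. Depth limits the genes with few counts: Mmp8, Adam4 and Mmp28 held 42, 31 and 48 counts over the 4 libraries.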
